A study of Mus musculus with 24 samples.

Results

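The zinc finger genes named Zfp700 to Zfp999 were described through the acetylation of lysine 27 on histone H3 (H3K27ac) at their promoters. A peak was taken where its gene column gave a symbol in that range and the edge of the peak lay within 1000 bp of the transcription start site (TSS). This rule gave 107 peaks at 78 genes, of 144154 peaks in the deposited table and of 21488 promoter peaks chosen the same way. Another 7 genes of the range were named in the table without a promoter peak, Zfp711, Zfp747, Zfp775, Zfp819, Zfp831, Zfp957 and Zfp960. All 107 peaks passed the filter on low counts. At the edge of the rule, the farthest peaks kept lay 851 bp (Zfp777), 859 bp (Zfp787) and 977 bp (Zfp768) from their start sites, and the nearest left out lay 1028.5 bp (Zfp800), 1049 bp (Zfp750) and 1050 bp (Zfp704) away.

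Chromatin came from NeuN-positive nuclei, sorted from the dentate gyrus of male C57BL/6J mice aged 12 weeks, and the titles name the hippocampus as a whole. The 4 groups were HDACi-CFC, HDACi-Context, Veh-CFC and Veh-Context, with 3 H3K27ac libraries in each. HDACi stands for CI-994, which inhibits class I histone deacetylases and was injected at 30 mg/kg into the peritoneum 1 h before the test. Veh is the same solvent mixture of dimethyl sulfoxide, Kolliphor and saline without CI-994, so the solvent is common to all groups. CFC is contextual fear conditioning, in which 3 min in the chamber were followed by 2 foot shocks of 1 s and 0.2 mA, and Context mice stayed in that chamber equally long without a shock. Tissue was taken 1 h after the test. Since every mouse in a cage went through the same test, an effect of shock and an effect of cage cannot be told apart; drugs were assigned at random. The labels do not say whether each library came from a separate mouse, and p-values therefore measure only the spread between these libraries. With nuclei in bulk, fewer nuclei of a type and less of the mark per nucleus cannot be told apart.

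Zinc finger proteins of the C2H2 type read DNA through rows of small folded units, each held together by a zinc ion, and they are the largest family of sequence-specific DNA-binding proteins in mammals. Many carry a KRAB domain, which recruits the corepressor Trim28 and through it the histone methyltransferase Setdb1 and HP1 proteins. A large number of KRAB proteins bind and silence transposable elements, and their genes arose by tandem duplication, so that they sit in clusters of near copies. In neurons H3K27ac at a promoter goes with an active gene, and deacetylases of class I remove this mark.

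The promoter sequences of the 5 genes on which the results below turn most often are printed here, because the mark was measured on or beside them. Each runs 5′ to 3′ from 250 bases before to 50 bases after the start site, taken from RefSeq on GRCm38.p6. Scaled to all peaks, Zfp850 passed the test in 4 comparisons and Zfp933 was lower after the drug in both kinds of mice. Zfp788 and Zfp719 are among the most strongly marked members, and Zfp827 changed strongly with shock in mice given CI-994. Capitals mark a match to 1 of 8 short motifs searched on both strands; a sequence without capitals holds none of them.
Zfp850, chr7:28014066-28014365, minus strand: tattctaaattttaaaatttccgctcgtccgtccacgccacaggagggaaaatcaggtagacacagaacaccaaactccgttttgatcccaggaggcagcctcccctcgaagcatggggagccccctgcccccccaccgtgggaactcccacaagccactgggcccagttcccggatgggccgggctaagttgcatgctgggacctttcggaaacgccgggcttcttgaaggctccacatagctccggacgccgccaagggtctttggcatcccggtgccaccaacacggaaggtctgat
Zfp933, chr4:147848369-147848668, minus strand: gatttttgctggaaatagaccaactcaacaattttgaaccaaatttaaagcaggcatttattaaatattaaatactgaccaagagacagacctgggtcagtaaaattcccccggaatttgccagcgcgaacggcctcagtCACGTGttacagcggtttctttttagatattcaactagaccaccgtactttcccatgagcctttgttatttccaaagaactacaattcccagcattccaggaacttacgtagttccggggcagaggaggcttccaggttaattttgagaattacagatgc
Zfp788, chr7:41633281-41633580, plus strand: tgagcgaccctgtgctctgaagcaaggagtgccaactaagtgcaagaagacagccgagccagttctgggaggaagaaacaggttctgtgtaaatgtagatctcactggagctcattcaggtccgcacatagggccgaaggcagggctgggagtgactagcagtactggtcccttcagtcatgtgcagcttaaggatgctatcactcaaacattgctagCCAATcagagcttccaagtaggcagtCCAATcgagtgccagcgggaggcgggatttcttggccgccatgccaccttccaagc
Zfp719, chr7:43579336-43579635, plus strand: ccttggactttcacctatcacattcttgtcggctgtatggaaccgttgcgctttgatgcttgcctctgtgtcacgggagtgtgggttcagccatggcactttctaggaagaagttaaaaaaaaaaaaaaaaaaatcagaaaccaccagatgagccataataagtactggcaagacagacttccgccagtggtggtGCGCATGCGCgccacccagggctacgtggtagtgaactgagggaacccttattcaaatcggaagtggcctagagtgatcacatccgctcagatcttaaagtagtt
Zfp827, chr8:79028187-79028486, plus strand: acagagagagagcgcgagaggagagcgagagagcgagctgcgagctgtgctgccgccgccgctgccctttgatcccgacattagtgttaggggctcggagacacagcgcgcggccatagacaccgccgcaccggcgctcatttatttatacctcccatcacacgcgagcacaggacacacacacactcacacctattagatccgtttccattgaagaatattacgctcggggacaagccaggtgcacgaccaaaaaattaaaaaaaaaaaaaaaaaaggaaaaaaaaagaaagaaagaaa

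The 8 motifs are spelled out in the sentences that follow, and none of them contains another. Of the 78 member genes, 70 matched a promoter of 300 bases in the RefSeq table. CCAAT, the letters bound by the factor NF-Y, stood in 37 of these 70 promoters (52.9%), against 37.9% of all 27025 promoters. GGGCGG, a GC box of Sp1 factors, stood in 44.3% of members, against 35.9% of all. CCGGAAG, of ETS factors, stood in 12.9%, against 9.12% of all. TGANTCA, the AP-1 letters of Fos and Jun, stood in 4.29% of members, against 7.93% of all, and the cAMP element TGACGTCA in 2.86%, against 1.88%. The other motifs differed little in share: CACGTG stood in 7.14% of members, against 7.24% of all, GCATGCGC in 2.86%, against 2.81%, and AAGATGGCG in 1.43%, against 1.5%. In the sequences above, Zfp788 holds CCAAT at 2 places, Zfp933 holds CACGTG, and the capitals in Zfp719 are 2 matches of GCATGCGC on opposite strands that share bases. The Zfp850 and Zfp827 promoters hold no match. Member promoters had a median of 12 CpG sites, against 7 over all promoters, at a similar GC content (median 53.5%, against 52.7%). The members were chosen for having a peak, whereas all promoters were taken by gene symbol, with or without a peak. Shares among promoters with a peak were not computed, so these differences need not be particular to the members. These shares are descriptions, and a match is not a bound site.

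Some promoters are near copies of others, which limits how far reads can be given to 1 gene. A stretch of 36 bases was shared with a promoter elsewhere by 9 of the 70, those of Zfp708, Zfp738, Zfp758, Zfp759, Zfp764, Zfp943, Zfp959, Zfp974 and Zfp975. The values of these 9 genes are uncertain to that extent. A start site on the opposite strand lay within 1000 bp for 10 genes, among them Zfp830 (Cct6b), Zfp788 (Gm51480) and Zfp748 (9430065F17Rik), where the mark belongs to either gene or to both.

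The 78 genes lie mostly in groups along the chromosomes. With neighbours at most 1 Mb apart joined, 51 genes fell in 14 clusters and 27 stood alone. Chromosome 7 held 19 genes, chromosome 8 held 14 and chromosome 17 held 13. The largest clusters had 6 genes each, among them Zfp712, Zfp708, Zfp759, Zfp953, Zfp748 and Zfp738 on chromosome 13, and Zfp930, Zfp868, Zfp964, Zfp869, Zfp963 and Zfp866 on chromosome 8. Of the 78 genes, 49 had 1 promoter peak and 29 had 2. Of the 107 peaks, 51 spanned the start site, 28 lay upstream of it and 28 downstream. The chromatin state deposited beside each peak was strong promoter for 86, primed enhancer for 16, active enhancer for 3 and a state named control for 2. Their median width was 1183 bp, against 1391 bp for all promoter peaks.

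Levels are in CPM, the peak count per 1e+06 counts of a library after TMM scaling, and they grow with peak width. The members averaged between 0.99 and 25.1 CPM over the 12 libraries with a median of 4.08 CPM, against 4.87 CPM for all promoter peaks. Per kb of peak the order was turned round, with a median of 3.71 CPM per kb for the members, against 3.48 CPM per kb for all promoter peaks. The 5 highest levels were those of Zfp949 (25.1 CPM), the Zfp706 downstream peak (19.9 CPM), Zfp788 (18.8 CPM), Zfp719 (17.2 CPM) and the Zfp715 downstream peak (14.6 CPM). The 3 lowest were the Zfp708 downstream peak (0.99 CPM), Zfp764 (1.05 CPM) and the Zfp846 peak that spans the start site (1.16 CPM). In each library the members held a small share of the counts. That share was 0.0604% to 0.0634% in HDACi-CFC, 0.0530% to 0.0542% in HDACi-Context, 0.0668% to 0.0730% in Veh-CFC and 0.0614% to 0.0649% in Veh-Context, so that no 2 libraries of HDACi and Veh overlapped after the same test. Library totals ran from 6639158 to 16734757 counts, and the shallowest library was Veh-Context replicate 2.

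**Figure D1:**
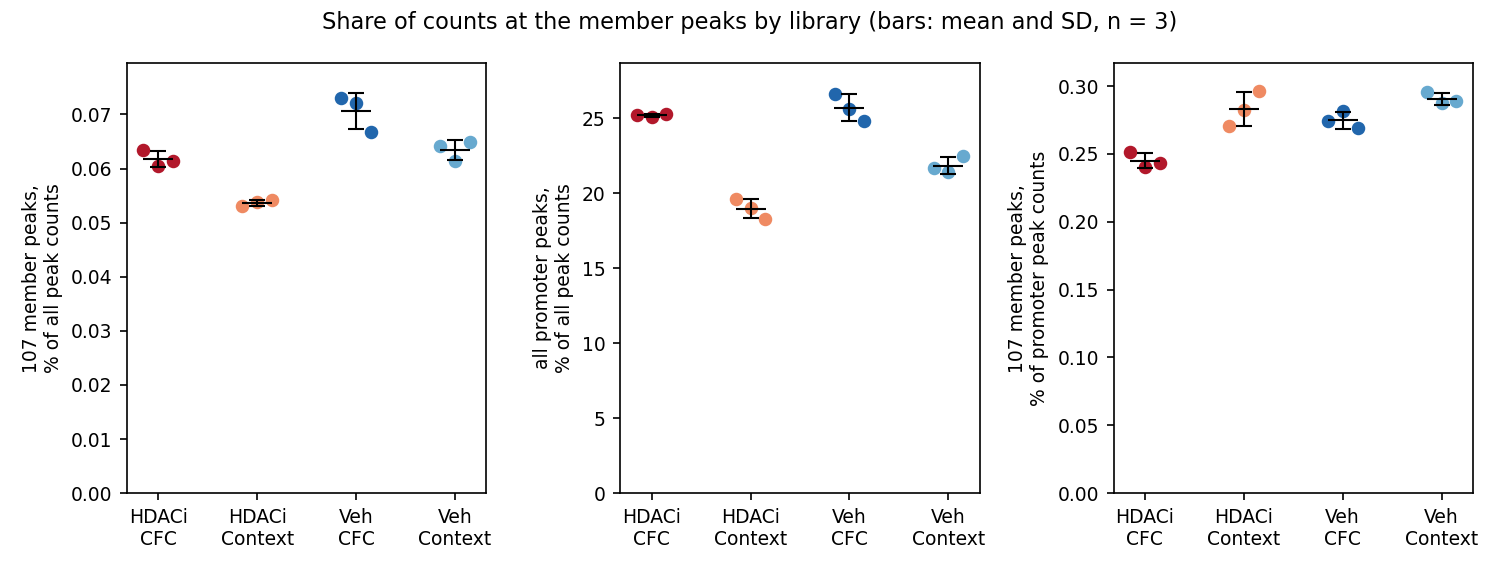
Share of counts by library, with groups along the x axis, 1 point per library and bars for mean and SD (n = 3): the 107 member peaks as a percent of all peak counts (left), all promoter peaks as a percent of all peak counts (middle), and the member peaks as a percent of promoter peak counts (right). Members as a percent of promoter counts averaged 0.245% in HDACi-CFC and 0.283% in HDACi-Context, and 0.275% in Veh-CFC and 0.291% in Veh-Context.

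The share of counts at all promoters itself moved with the groups, which matters for every direction given for the members. All promoter peaks held 25.2% ± 0.104 of counts in HDACi-CFC, 19.0% ± 0.651 in HDACi-Context, 25.7% ± 0.904 in Veh-CFC and 21.8% ± 0.547 in Veh-Context (SD, n = 3 each). Changes below are therefore relative to all peaks of a library unless stated, and for the 4 comparisons of 2 groups the count of members called is followed by the count when TMM factors came from promoter peaks alone, an alternative chosen after seeing the data. That scaling moved the median log2 change of all peaks to 0.05, 0.29, −0.54, −0.25 and −0.23 in the 5 comparisons in the order reported. As for cell type, promoters of all 6 neuronal marker genes and of all 7 markers of dentate granule neurons carried peaks. The neuronal promoters summed to 527 to 563 CPM in HDACi-CFC, 355 to 379 CPM in HDACi-Context, 489 to 551 CPM in Veh-CFC and 443 to 488 CPM in Veh-Context. Those of granule neurons summed to 372 to 486 CPM in HDACi-CFC, 285 to 348 CPM in HDACi-Context, 452 to 528 CPM in Veh-CFC and 363 to 399 CPM in Veh-Context. Markers of oligodendrocytes, which the sort should remove, had promoter peaks for 6 of 6 genes, summing to 176 to 198 CPM in HDACi-CFC, 92.6 to 106 CPM in HDACi-Context, 169 to 214 CPM in Veh-CFC and 130 to 144 CPM in Veh-Context. Astrocyte markers (5 of 6 with a peak) summed to 60.6 to 68.2 CPM in HDACi-CFC, 46.6 to 49.8 CPM in HDACi-Context, 64.0 to 71.2 CPM in Veh-CFC and 48.1 to 57.2 CPM in Veh-Context. The sums of all 4 lists thus moved as promoters at large did, higher after CFC than after Context. Rbfox3 (208 CPM), Prox1 (169 CPM) and Mbp (104 CPM) weigh most in theirs. In HDACi-CFC against HDACi-Context 4 granule neuron markers were called higher and 2 lower, Tdo2 (−0.79) and Dock10 (−0.33). Microglia markers (4 of 6 with a peak) overlapped there, at 24.1 to 26.8 CPM in HDACi-CFC and 22.7 to 24.6 CPM in HDACi-Context. The part of cell types in the results for the members was not tested.

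The first comparison asks what CI-994 did in mice that were then shocked. Of the 107 member peaks, 5 were lower in HDACi-CFC than in Veh-CFC at an adjusted p under 0.05 and none was higher (edgeR quasi-likelihood test, Benjamini-Hochberg over all 144014 peaks tested). Over all peaks, 0.435% were lower and 0.483% higher. The 5 lower peaks were 4.67% of the members, and 2.13% of all promoter peaks were lower. An unadjusted p under 0.05 was reached by 21 member peaks with a lower and 2 with a higher level. Of all 21468 promoter peaks tested, 3296 had a lower and 1349 a higher level at that threshold. DESeq2 likewise called 5 members lower and 0 higher. The median log2 change of the members was −0.17, against −0.08 over all promoter peaks. With promoter-based factors 3 members were lower and 0 higher, or 2.8% and 0%. On that scale 1.24% of all promoter peaks were lower and 1.23% higher.

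All 5 were peaks that span a start site. Zfp933, on chromosome 4 (chr4:147847596-147849649), had 7.90, 7.49 and 7.64 CPM in HDACi-CFC, against 12.6, 15.9 and 12.3 CPM in Veh-CFC. The groups did not overlap, and the log2 change was −0.83 ± 0.16 (SE, adjusted p = 0.0040). Zfp956, on chromosome 6, had 11.5, 10.1 and 11.6 CPM in HDACi-CFC, against 18.1, 16.3 and 19.5 CPM in Veh-CFC (log2 change −0.69 ± 0.14, adjusted p = 0.0072). Zfp748, in the cluster on chromosome 13, had 4.06, 3.95 and 5.29 CPM in HDACi-CFC, against 8.73, 7.74 and 6.94 CPM in Veh-CFC (log2 change −0.81 ± 0.19, adjusted p = 0.020). Its groups were apart too, although an opposite start site shares the peak. Zfp850 had 7.46, 6.34 and 7.56 CPM in HDACi-CFC, against 12.2, 11.5 and 11.5 CPM in Veh-CFC (log2 change −0.71 ± 0.18, adjusted p = 0.034). Zfp790 had 11.5, 11.6 and 11.8 CPM in HDACi-CFC, against 17.9, 18 and 16.0 CPM in Veh-CFC (log2 change −0.57 ± 0.14, adjusted p = 0.027). In each of the 5 all HDACi-CFC libraries lay below all Veh-CFC libraries, as at 28 of the 107 members, while at 9 they lay above. The share over all promoter peaks was not computed. Peaks called on these same libraries tend to be apart, so this adds no support to the calls. None of the 5 calls held in every fit that left out 1 library: Zfp933 was lost without Veh-CFC replicate 2 and Zfp956 without HDACi-CFC replicate 2, and the count fell to 1 without either, to 2 without HDACi-CFC replicate 1 and to 3 without HDACi-CFC replicate 3.

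The second comparison is the same drug in mice that saw the chamber without shock. Here 24 member peaks at 24 genes were lower in HDACi-Context than in Veh-Context and 1 was higher, or 22.4% and 0.935% of the members. Among all peaks tested the lower ones were 5.85% and the higher ones 2.73%, and over all promoter peaks 21.3% were lower and 0.918% higher. These shares are near those of promoters at large and are no result about the members as such. Their median log2 change was −0.34, against −0.30 over all promoter peaks. With promoter-based factors the split was 6 lower and 10 higher, so the excess of lower calls depends on what the counts are scaled to. On that scale 9.56% of all promoter peaks were lower and 9.16% higher. The count of calls fell to 7 without Veh-Context replicate 3 and to 12 without HDACi-Context replicate 2.

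Zfp788, among the members highest in CPM, had 10.8, 10.7 and 12.0 CPM in HDACi-Context, against 21.6, 19.6 and 23.4 CPM in Veh-Context (log2 change −0.95 ± 0.13, adjusted p = 4.2e-06). The lowest Veh-Context library was well above the highest HDACi-Context library. Zfp961, by its upstream peak on chromosome 8, had 2.5, 2.20 and 2.24 CPM in HDACi-Context, against 4.93, 6.18 and 5.29 CPM in Veh-Context (log2 change −1.22 ± 0.21, adjusted p = 0.00013). Zfp958 had 3.68, 2.38 and 2.79 CPM in HDACi-Context, against 6.27, 4.56 and 6.84 CPM in Veh-Context (log2 change −1.05 ± 0.23, adjusted p = 0.0020). The calls of Zfp788, Zfp958 and Zfp961 held under each scaling, each tool and each omission of a library that was run.

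Zfp827, whose human counterpart ZNF827 is known to recruit the NuRD deacetylase complex to telomeres, had 4.17, 2.49 and 2.45 CPM in HDACi-Context, against 4.85, 6.92 and 8.16 CPM in Veh-Context. Its log2 change was −1.13 ± 0.25 (adjusted p = 0.0035), and the call was lost without Veh-Context replicate 3. Zfp975 showed the largest drop, −1.61 ± 0.40 on the log2 scale (adjusted p = 0.0072), at low levels of 0.695, 0.638 and 0.408 CPM in HDACi-Context, against 1.79, 2.06 and 1.62 CPM in Veh-Context. DESeq2 did not call it, and its promoter shares sequence with near copies. Zfp825 (−1.26 ± 0.32), Zfp786 (−0.93 ± 0.26), Zfp709 (−0.91 ± 0.26) and Zfp866 (−0.81 ± 0.26) were lower at their upstream peaks, and Zfp760 (−0.79 ± 0.21) at the peak spanning its start site, with adjusted p from 0.0071 to 0.038. The calls of Zfp786, Zfp709, Zfp866 and Zfp760 were lost with promoter-based factors. Those of Zfp825 and Zfp866 were lost with DESeq2, and that of Zfp866 also with library totals. Of the 12 fits that left out 1 library, 9 kept Zfp825, Zfp786 and Zfp709, 10 kept Zfp760 and 7 kept Zfp866.

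Zfp933, Zfp956, Zfp850 and Zfp790 were lower after the drug in both kinds of mice when scaled to all peaks. With promoter-based factors all 4 lost the call in unshocked mice, and Zfp850 and Zfp790 lost it in shocked mice too; Zfp956 in unshocked mice also lost it with library totals. In unshocked mice Zfp933 had 7.02, 9.04 and 9.25 CPM in HDACi-Context, against 13.9, 11.9 and 13.7 CPM in Veh-Context (log2 change −0.65 ± 0.15, adjusted p = 0.0028). The log2 change was −0.73 ± 0.18 for Zfp850 (adjusted p = 0.0069), −0.50 ± 0.14 for Zfp790 (adjusted p = 0.014) and −0.46 ± 0.14 for Zfp956 (adjusted p = 0.030). For Zfp850 the groups overlapped, since 1 HDACi-Context library had 5.45 CPM and 1 Veh-Context library 4.86 CPM. The peak that was higher lay downstream of the Zfp715 start site, 5385 bp wide and of the primed enhancer state. It had 15.1, 15.9 and 14.4 CPM in HDACi-Context, against 11.3, 10.5 and 10.9 CPM in Veh-Context (log2 change 0.47 ± 0.14, adjusted p = 0.021). The other Zfp715 peak was not called.

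**Figure D2:**
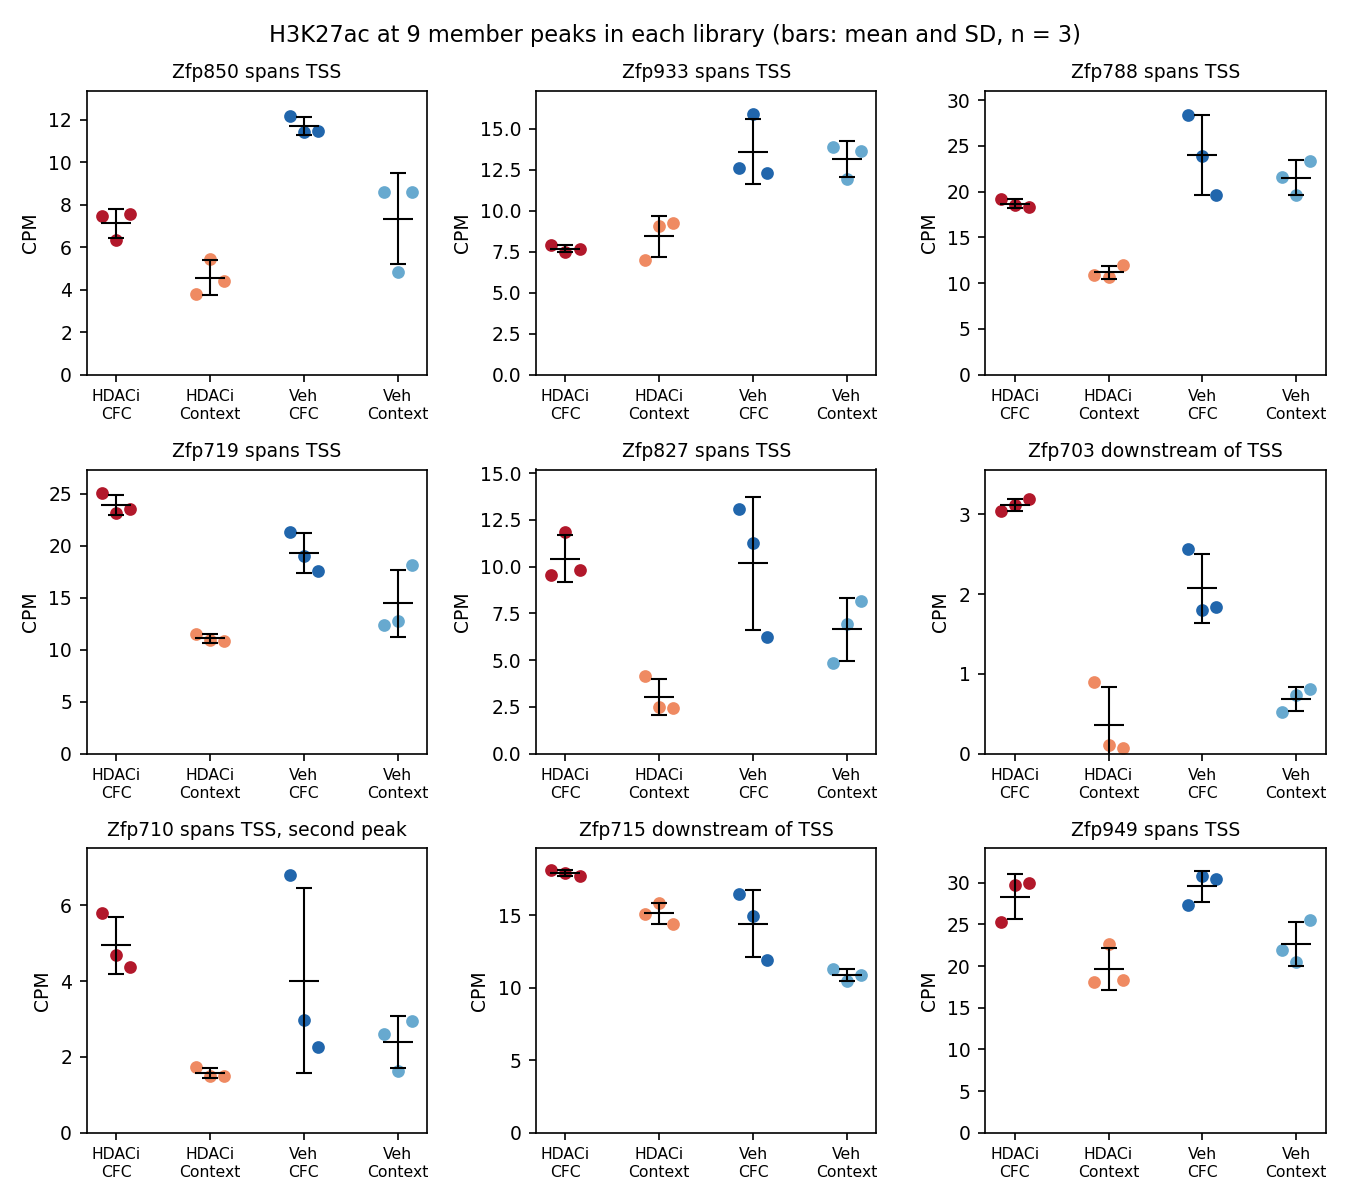
H3K27ac level (y axis, CPM from 0) at 9 member peaks in the 4 groups along the x axis, with 1 point per library and bars for mean and SD (n = 3). HDACi libraries lie below Veh libraries at Zfp933 after either test, whereas at Zfp719 the HDACi-CFC libraries (23.2 to 25.1 CPM) lie above the HDACi-Context libraries (10.8 to 11.5 CPM).

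The third comparison sets shocked against unshocked mice that both had CI-994. Among the members 31 peaks at 27 genes were higher in HDACi-CFC than in HDACi-Context and 3 were lower, or 29.0% and 2.80%. Over all peaks, 20.2% were higher and 17.8% lower, and over all promoter peaks 45.3% were higher and 2.02% lower. The median log2 change of the members was 0.29, against 0.42 over all promoter peaks. The difference between the members and other promoters in these shares and medians was not tested. With promoter-based factors the split turned to 11 higher and 29 lower members, against 20.7% higher and 21.6% lower among all promoter peaks. With library totals alone it was 24 higher and 11 lower.

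Zfp703, a corepressor gene whose human counterpart is amplified in luminal breast cancers, had the largest rise. Its downstream peak (chr8:26977801-26978398) had 3.04, 3.12 and 3.19 CPM in HDACi-CFC, against 0.904, 0.116 and 0.068 CPM in HDACi-Context (log2 change 3.12 ± 0.43, adjusted p = 3.1e-07). The HDACi-Context counts were 13, 2 and 1, so the size of this fold rests on few reads. Its upstream peak had 5.22, 2.91 and 3.28 CPM in HDACi-CFC, against 1.53, 0.811 and 0.748 CPM in HDACi-Context (log2 change 1.91 ± 0.31, adjusted p = 8.2e-06). At both peaks the HDACi-CFC libraries lay above all HDACi-Context libraries, and replicate 1 was the highest of the 3 HDACi-Context libraries.

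Zfp827 had 9.56, 11.9 and 9.83 CPM in HDACi-CFC, against 4.17, 2.49 and 2.45 CPM in HDACi-Context (log2 change 1.78 ± 0.23, adjusted p = 1.2e-06). Zfp719 had 25.1, 23.2 and 23.5 CPM in HDACi-CFC, against 11.5, 10.9 and 10.8 CPM in HDACi-Context (log2 change 1.11 ± 0.14, adjusted p = 2.1e-08). Replicates of Zfp719 differed by far less than the groups. Zfp710 had 2 separate peaks, each across the start site annotated for that peak. The second had 5.80, 4.68 and 4.37 CPM in HDACi-CFC, against 1.74, 1.51 and 1.5 CPM in HDACi-Context (log2 change 1.65 ± 0.27, adjusted p = 1.1e-05), and the first rose by 1.15 ± 0.29 (adjusted p = 0.0018). In the first peak the groups overlapped, with 1 HDACi-CFC library at 1.87 CPM and 1 HDACi-Context library at 2.31 CPM. Zfp958 had 8.69, 5.62 and 8.06 CPM in HDACi-CFC, against 3.68, 2.38 and 2.79 CPM in HDACi-Context (log2 change 1.36 ± 0.22, adjusted p = 6.5e-06).

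Zfp768, whose human counterpart binds old repeat sequences, rose by 1.25 ± 0.30 at its downstream peak (adjusted p = 0.00094), with 2.61, 2.5 and 2.60 CPM in HDACi-CFC, against 1.25, 1.16 and 0.816 CPM in HDACi-Context. Its upstream peak, of the primed enhancer state, rose by 0.44 ± 0.16 (adjusted p = 0.026), and this value became −0.047 with promoter-based factors. Zfp853 rose by 1.03 ± 0.24 (adjusted p = 0.00074) and the Zfp839 downstream peak by 1.02 ± 0.20 (adjusted p = 8.1e-05). Zfp703, Zfp710, Zfp719, Zfp768 downstream, Zfp827, Zfp839, Zfp853, Zfp958 and Zfp974 (the last named for this reason, after its values were seen) gave 11 peaks that remained called under each scaling, tool and omission of a library that was run.

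The 3 lower members lost their calls in several fits, and DESeq2 called none of them. Zfp708, which in mice binds a class of retroelements, had 0.652, 0.624 and 0.672 CPM at its downstream peak in HDACi-CFC, against 1.46, 1.10 and 1.63 CPM in HDACi-Context (log2 change −1.08 ± 0.44, adjusted p = 0.047). The Zfp868 upstream peak had 1.3, 1.46 and 0.924 CPM in HDACi-CFC, against 1.74, 2.38 and 2.58 CPM in HDACi-Context (log2 change −0.87 ± 0.30, adjusted p = 0.021). Zfp953 had 4.2, 4.37 and 3.61 CPM in HDACi-CFC, against 5.28, 5.97 and 6.46 CPM in HDACi-Context (log2 change −0.54 ± 0.20, adjusted p = 0.032). All 3 genes lie in the 2 clusters of 6 genes named above.

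**Figure D3:**
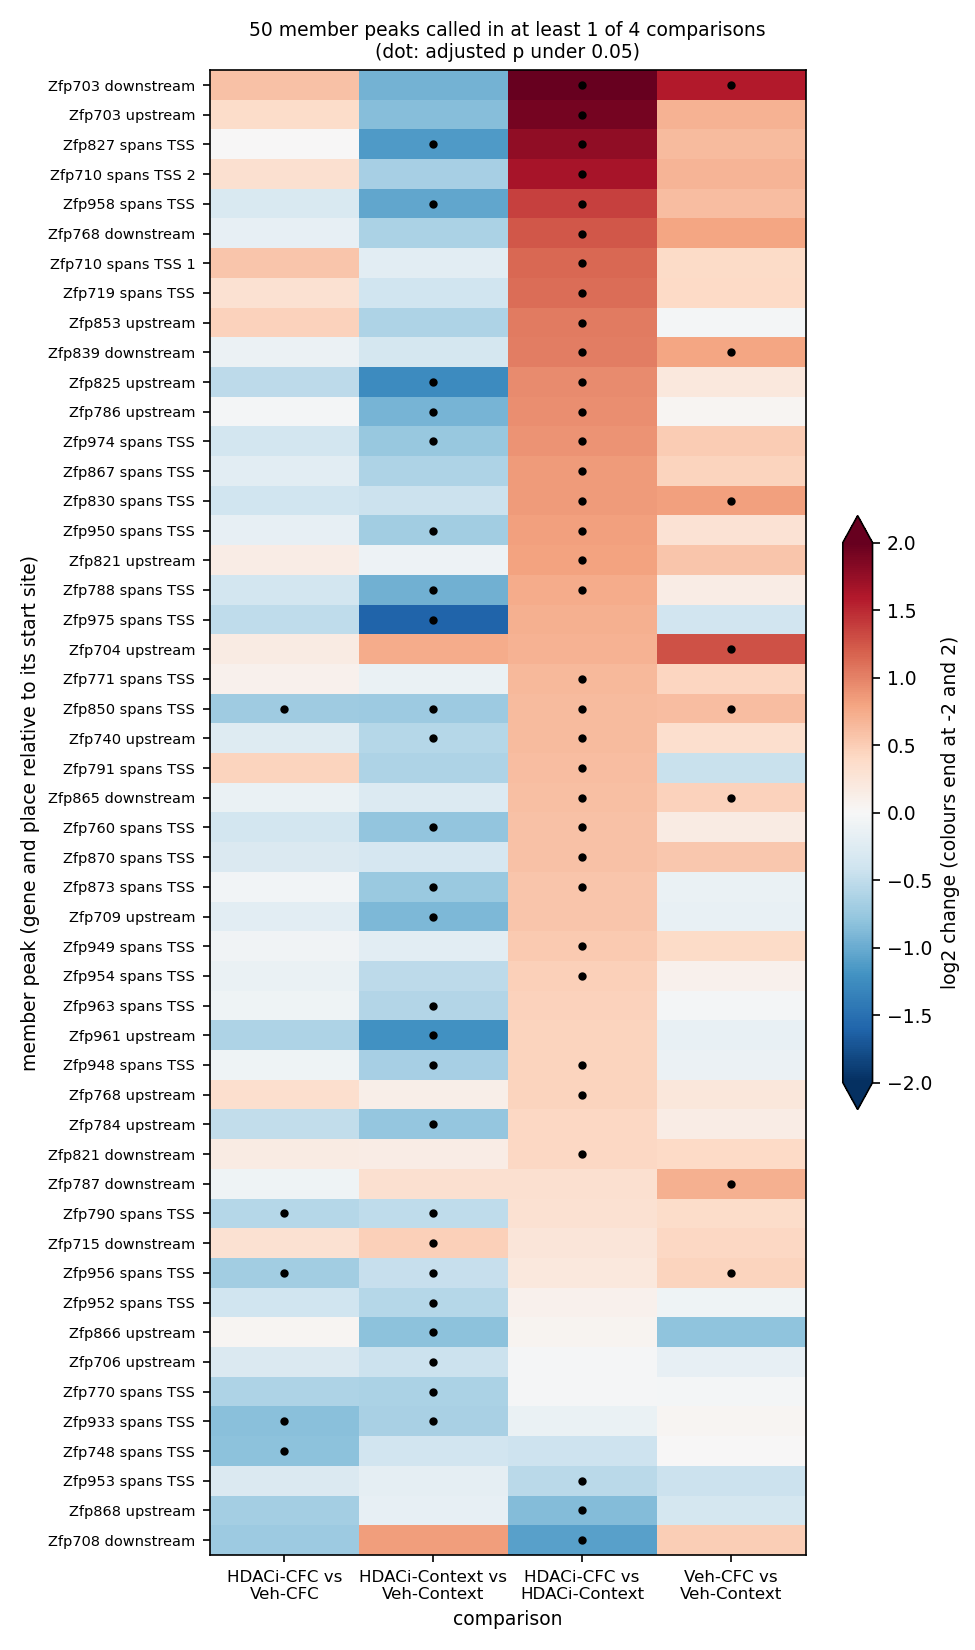
Log2 change (colour, ending at −2 and 2) of the 50 member peaks called in at least 1 of 4 comparisons, with peaks down the page in order of their change in HDACi-CFC against HDACi-Context, and comparisons along the x axis. Dots mark an adjusted p under 0.05, which falls on 5, 25, 34 and 8 peaks in the 4 columns.

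The fourth comparison is shock without the drug. Of the members, 8 were higher in Veh-CFC than in Veh-Context and none was lower, or 7.48% and 0%. Over all peaks 4.41% were higher and 2.74% lower, and over all promoter peaks 14.1% were higher and 0.466% lower. An unadjusted p under 0.05 was reached by 27 members with a higher and 2 with a lower level. Of all 21468 promoter peaks tested, 6807 had a higher and 591 a lower level at that threshold. DESeq2 called 5 members higher and 0 lower. The median log2 change was 0.14, against 0.25 over all promoter peaks. With promoter-based factors 4 were higher and 5 lower, or 3.74% and 4.67%. On that scale 6.64% of all promoter peaks were higher and 4.94% lower.

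Zfp787 had 20.2, 14.3 and 15.1 CPM at its downstream peak in Veh-CFC, against 10.9, 9.42 and 9.63 CPM in Veh-Context (log2 change 0.72 ± 0.15, adjusted p = 0.0034). Zfp830, a gene needed in early mouse embryos and sharing its peak with Cct6b, had 8.48, 9.01 and 7.64 CPM in Veh-CFC, against 3.88, 4.86 and 5.59 CPM in Veh-Context (log2 change 0.82 ± 0.20, adjusted p = 0.011). In both, all shocked libraries lay above all unshocked ones. The Zfp703 downstream peak had 2.57, 1.80 and 1.84 CPM in Veh-CFC, against 0.523, 0.736 and 0.809 CPM in Veh-Context (log2 change 1.58 ± 0.45, adjusted p = 0.027). Zfp704 had 2.44, 3.71 and 1.42 CPM in Veh-CFC, against 1.42, 0.294 and 1.18 CPM in Veh-Context (log2 change 1.27 ± 0.37, adjusted p = 0.030). Its lowest Veh-Context library held 2 counts, and the groups met at 1.42 CPM. Zfp839 (0.79 ± 0.21), Zfp850 (0.62 ± 0.18), Zfp865 (0.45 ± 0.14) and Zfp956 (0.45 ± 0.14) were the other 4, with adjusted p from 0.017 to 0.041. Zfp827, called with shock under CI-994, was not called with vehicle, at a log2 change of 0.64.

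None of the 8 calls held in every fit that left out 1 library. Without Veh-CFC replicate 1 the count fell to 1, and without Veh-Context replicates 1 or 2 it fell to 2 or 3, whereas without HDACi-Context replicate 1 it rose to 15. The comparisons of shock with and without CI-994 use separate libraries. Zfp850, Zfp703 downstream, Zfp830, Zfp839 downstream and Zfp865 downstream were higher in both when scaled to all peaks. With promoter-based factors Zfp850 and Zfp865 lost both calls, Zfp830 lost the call with CI-994 and Zfp839 the call with vehicle. The vehicle call of Zfp703 downstream was lost with loess offsets and with DESeq2. For Zfp850 the log2 change was 0.64 ± 0.18 with CI-994 and 0.62 ± 0.18 with vehicle.

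The fifth comparison asks whether the drug effect differed between shocked and unshocked mice, as the drug effect after CFC minus that after Context. No member peak was called in either direction in edgeR, where 0.034% of all peaks were called higher and 0.000694% lower. An unadjusted p under 0.05 was reached by 14 members with a higher and 2 with a lower value. Of all 21468 promoter peaks tested, 3569 had a higher and 171 a lower value at that threshold. DESeq2 called 1 member, Zfp719. The lowest adjusted p in edgeR was that of Zfp719 (log2 difference 0.71 ± 0.20, adjusted p = 0.12), followed by Zfp791 (adjusted p = 0.13, named after its value was seen) and Zfp827 (1.14 ± 0.33, adjusted p = 0.15). Zfp719 averaged 23.9 ± 1.0 CPM in HDACi-CFC, 11.1 ± 0.40 CPM in HDACi-Context, 19.3 ± 1.9 CPM in Veh-CFC and 14.5 ± 3.2 CPM in Veh-Context (SD, n = 3 each). Zfp827 averaged 10.4 ± 1.3 CPM in HDACi-CFC, 3.04 ± 0.98 CPM in HDACi-Context, 10.2 ± 3.6 CPM in Veh-CFC and 6.64 ± 1.7 CPM in Veh-Context. The drug effects on Zfp827, 0.01 ± 0.21 after CFC and −1.13 ± 0.25 after Context, were therefore not shown to differ. Between 2 and 5 members passed the threshold without Veh-Context replicate 1, without Veh-CFC replicate 1 or without HDACi-Context replicate 1, and Zfp719 and Zfp827 were among them each time.

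**Figure D4:**
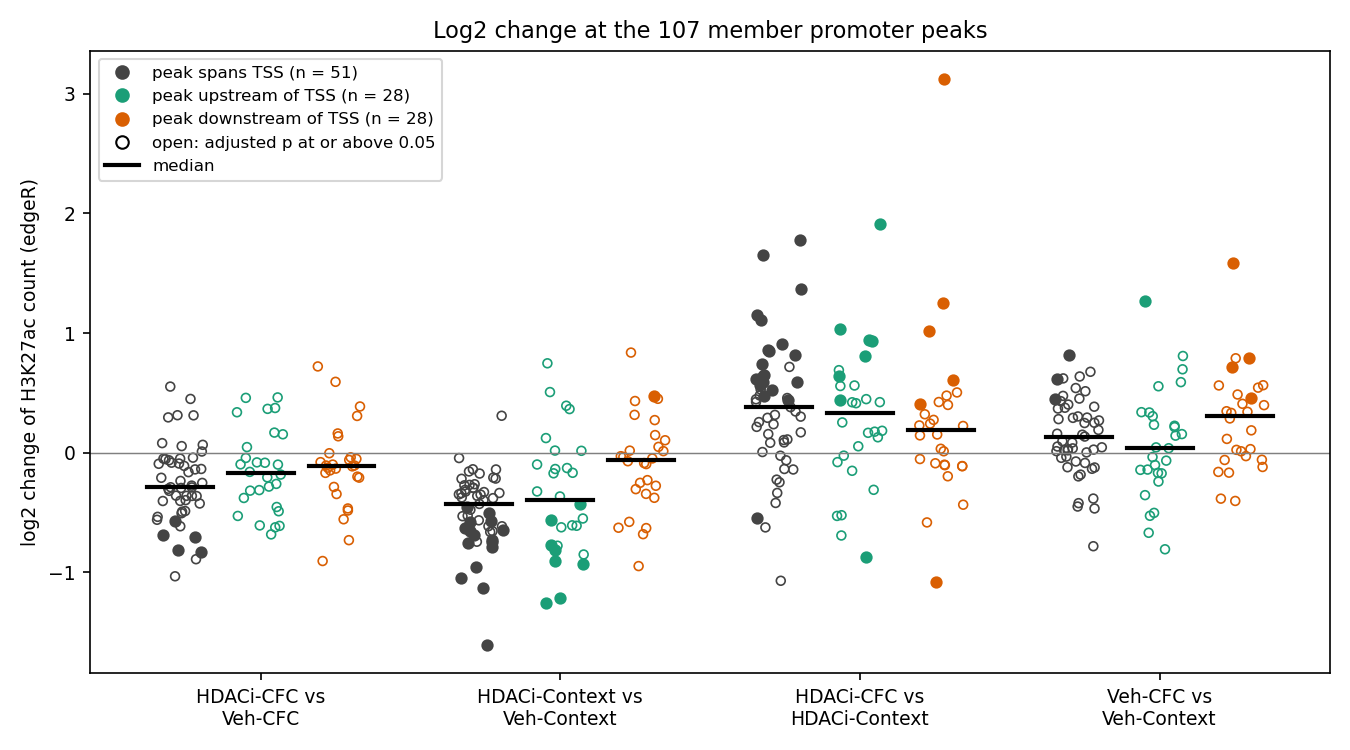
Log2 change of H3K27ac (y axis) at each of the 107 member peaks in 4 comparisons along the x axis, split into peaks that span the start site (51), lie upstream (28) or lie downstream (28). Filled points have an adjusted p under 0.05 and bars are medians, which in HDACi-Context against Veh-Context are −0.43, −0.40 and −0.06 in that order.

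The change differed with the place of the peak relative to the start site, here relative to all peaks. In HDACi-Context against Veh-Context, 50 of the 51 spanning members had a negative log2 change, as had 4932 of all 5898 spanning promoter peaks. Lower calls fell on 16 of 51 spanning members, 8 of 28 upstream members and none of 28 downstream members. Those lower calls were 31.4% of spanning, 28.6% of upstream and 0% of downstream members, against 34.4%, 19.6% and 13.6% of all promoter peaks in those places, so the spanning share is near that of promoters at large. The median log2 change was −0.43 for spanning, −0.40 for upstream and −0.06 for downstream members. All promoter peaks showed the same order with a smaller gap, at −0.39 for 5898 spanning, −0.30 for 7099 upstream and −0.25 for 8471 downstream peaks. With shock under vehicle the medians of the members were 0.13 for spanning, 0.04 for upstream and 0.31 for downstream peaks. All promoter peaks had the same order there, at 0.23, 0.12 and 0.37. The state of the peak followed the same line. Members of the strong promoter state had a median of −0.38 in HDACi-Context against Veh-Context, and the 16 of the primed enhancer state, among them Zfp706, Zfp715, Zfp746, Zfp750 and Zfp787, had 0.04. All promoter peaks showed the same split, −0.42 for the strong promoter and −0.03 for the primed enhancer state.

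Genes with 2 peaks allow the same comparison within a gene. The 2 peaks were ordered by the signed distance of each to the start site annotated for it. Peaks of a gene can belong to different start sites, as those of Zfp800, which span 135.4 kb. First and second therefore need not be an order along the gene. In HDACi-Context against Veh-Context the second peak had the higher log2 change in 21 of 29 genes, by a median of 0.35. The share over all genes with 2 promoter peaks was not computed. In Veh-CFC against Veh-Context it did so in 22 of 29 genes, by a median of 0.37. In HDACi-CFC against Veh-CFC it did so in 17 genes (median 0.08) and in HDACi-CFC against HDACi-Context in 18 (median 0.09). The 2 comparisons with the larger gap share the Veh-Context libraries. For Zfp706, a regulator of the exit from self-renewal in mouse embryonic stem cells, the upstream peak was lower in HDACi-Context (10.0, 11 and 12.5 CPM) than in Veh-Context (16.0, 14.3 and 14.6 CPM), with a log2 change of −0.43 ± 0.14 (adjusted p = 0.038). This call was lost with library totals, loess offsets, promoter-based factors and the fit of 6 libraries, and it held in 6 of the 12 fits that left out 1 library. Its downstream peak had 20.4, 23.8 and 22.2 CPM in HDACi-Context, against 19.9, 16.6 and 18.2 CPM in Veh-Context (log2 change 0.27 ± 0.13, adjusted p = 0.19).

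**Figure D5:**
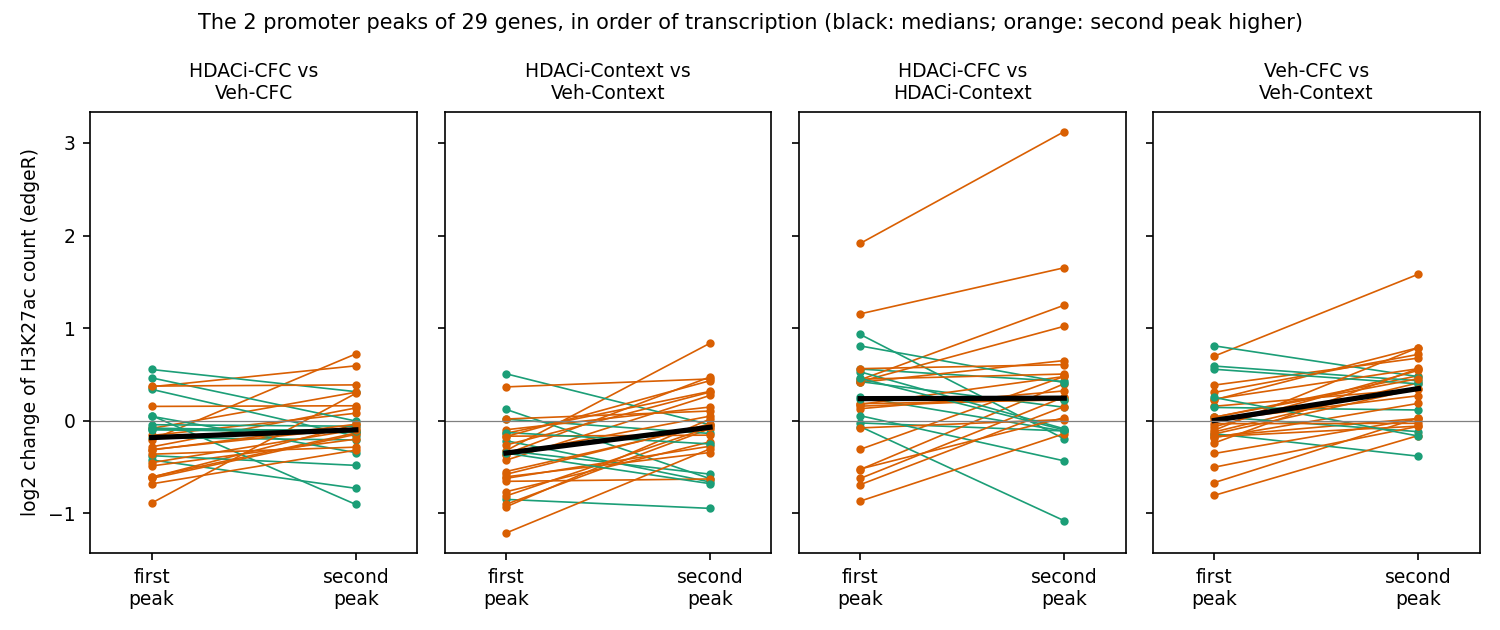
Log2 change (y axis) of the first and the second promoter peak for the 29 genes with 2 peaks, 1 line per gene and 1 panel per comparison, with medians in black. First and second follow the signed distance of each peak to its annotated start site, which need not be an order along the gene. Orange lines, where the second peak has the higher change, number 17, 21, 18 and 22 of 29 from left to right.

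Of the 7 listed genes with known roles elsewhere and a promoter peak, Zfp703, Zfp706, Zfp768 and Zfp827 had a call above, and Zfp746, Zfp750 and Zfp809 had none. Zfp809, the KRAB protein that silences retroviruses in mouse embryonic stem cells, had 3.12, 2.70 and 2.60 CPM at its upstream peak in HDACi-CFC, against 3.47, 3.50 and 4.1 CPM in Veh-CFC (log2 change −0.38 ± 0.25, adjusted p = 0.59). In unshocked mice that peak had 2.36, 2.72 and 3.88 CPM in HDACi-Context, against 3.14, 4.86 and 3.90 CPM in Veh-Context (log2 change −0.37 ± 0.23, adjusted p = 0.35). The libraries overlapped in unshocked mice. Zfp746, known as PARIS, a substrate of parkin that represses Ppargc1a, was between −0.11 and 0.29 on the log2 scale in the 4 comparisons, with no call. Zfp750, a regulator of epidermal differentiation, had 2 peaks of the primed enhancer state and no call. Its upstream peak came nearest, at 0.81 ± 0.28 in Veh-CFC against Veh-Context (adjusted p = 0.066). Zfp949, the most strongly marked member, was higher in HDACi-CFC than in HDACi-Context, with 25.3, 29.7 and 30.0 CPM against 18.1, 22.6 and 18.4 CPM (log2 change 0.52 ± 0.12, adjusted p = 0.0010), a call lost with promoter-based factors.

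Changes also differed among clusters, given here as medians with no test. In HDACi-CFC against HDACi-Context the 36 peaks of lone genes had a median log2 change of 0.52, and 18 of the 36 were higher, a share near the 45.3% of all promoter peaks. The 71 peaks of clustered genes had a median of 0.23, with 13 higher and 3 lower. These values are relative to all peaks, and the split by cluster was not computed with promoter-based factors. The 7 peaks of the 6 genes on chromosome 13 had a median of −0.06 and the 11 peaks of the 6 genes on chromosome 8 had −0.10, while Zfp974 and Zfp850, neighbours on chromosome 7, had 0.77. In HDACi-CFC against Veh-CFC the cluster on chromosome 13 had a median of −0.49. Peaks of genes with CCAAT in the promoter had a median of −0.37 in HDACi-Context against Veh-Context, and those without it had −0.34. In HDACi-CFC against Veh-CFC those medians were −0.30 with CCAAT and −0.10 without.

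Zfp genes numbered under 700 were taken as the most similar genes of the series, with 319 promoter peaks at 215 genes. Their median log2 change was −0.19 in HDACi-CFC against Veh-CFC, −0.38 in HDACi-Context against Veh-Context, 0.36 in HDACi-CFC against HDACi-Context and 0.24 in Veh-CFC against Veh-Context. The share called higher in HDACi-CFC over HDACi-Context was 29.0% of the members and 40.1% of these peaks. The share called lower in HDACi-Context than in Veh-Context was 22.4% of the members and 27% of these peaks. The difference between both sets was not tested. The 207 other peaks that the table names for Zfp700 to Zfp999, away from the start sites, had medians of −0.09, −0.04, 0.00 and 0.06 in the 4 comparisons.

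Of 16 genes listed as partners of KRAB proteins in silencing, 15 had a promoter peak, and their values are relative to all peaks. In HDACi-CFC against Veh-CFC none was called. In HDACi-Context against Veh-Context 0 were higher and 3 lower, Smarcad1 (−1.05 ± 0.18), a chromatin remodeller, Mphosph8 (−0.59 ± 0.14), a HUSH subunit, and Dnmt1 (−1.06 ± 0.33), the maintenance DNA methyltransferase. In HDACi-CFC against HDACi-Context 6 were higher and 2 lower, Setdb1 (−1.03 ± 0.37) and Atf7ip (−0.34 ± 0.14). In Veh-CFC against Veh-Context 2 were higher and 1 lower, Smarcad1 (−0.68 ± 0.19). The higher calls are in shares near those of all promoter peaks, 45.3% and 14.1% in these 2 comparisons. The lower calls there, 2 and 1 of 15, stand beside 2.02% and 0.466% of all promoter peaks, a difference that was not tested. In HDACi-Context against Veh-Context 21.3% of all promoter peaks were lower, so 3 of 15 is a near share and no result about these genes as such. Trim28, the common corepressor, was higher with shock, by 0.59 ± 0.14 with CI-994 (adjusted p = 0.00089) and by 0.50 ± 0.15 with vehicle (adjusted p = 0.038). With the drug its log2 change was 0.22 ± 0.14 after CFC (adjusted p = 0.58) and 0.13 ± 0.15 after Context (adjusted p = 0.63).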

How the data were processed

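H3K27ac ChIP-seq of 12 libraries was used, 3 in each of 4 groups; input libraries were not analysed here. The deposited values are raw read counts per peak (whole numbers with unequal library totals). No count is under 1, so a value of 1 may stand for an empty cell. Per the submitters' processing notes the authors used mm10, with HOMER 4.11, DESeq2 1.28.1, DiffBind 2.16.2 and MACS2, besides Bowtie2 2.3.5, Trimmomatic 0.38 and SAMtools 1.9, whose roles and settings are not given. The column names hold no antibody and were taken as the H3K27ac libraries. The series text gives other numbers of treatments and replicates than the labels, which were followed.

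Counts of all 144154 peaks were tested in R 4.3.3 with edgeR 4.0.16 (quasi-likelihood F test, TMM factors, filterByExpr with a minimum count of 10, robust, 1 term per group over all 12 libraries). The filter left 144014 peaks, over which p-values were adjusted by Benjamini-Hochberg, with calls at an adjusted p under 0.05. The SE of a log2 change is its size divided by the root of F. No spike-in was used, so a change is relative to a library's other peaks, and a low count limits precision most at the narrow peaks. Tests were tried on simulated data first. DESeq2 1.42.0, loess offsets from limma 3.58.1, other scalings, no filter, a replicate block and omission of each library were alternatives. Peaks named in the text were the called members with the largest changes (up to 10 in each direction of a comparison), the 5 highest and 3 lowest in CPM and a list of members with known roles; peaks named under that rule in 1 comparison are also given in others, and Zfp974, Zfp791 and the split by position were added after values were seen; the list comprised Zfp703, Zfp706, Zfp711, Zfp746, Zfp750, Zfp768, Zfp809, Zfp819, Zfp827, Zfp831 and Zfp932. Of that list, Zfp711, Zfp819, Zfp831 and Zfp932 had no promoter peak in the table. Members and lists were chosen with earlier results of these data known. Promoter sequences were taken from RefSeq on GRCm38.p6, and the peak coordinates are those of the deposited table.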

Additional observations from a re-analysis of the deposited data

How the results depend on the processing

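With TMM factors from promoter peaks alone, an alternative chosen after seeing the data, the number of member peaks called was 3 in HDACi-CFC against Veh-CFC and 16 in HDACi-Context against Veh-Context, against 5 and 25. In HDACi-CFC against HDACi-Context it was 40, against 34, mostly in the other direction. The median log2 change of the members became −0.04 in HDACi-Context against Veh-Context, −0.19 in HDACi-CFC against HDACi-Context and −0.11 in Veh-CFC against Veh-Context, and the Zfp768 upstream peak turned to −0.047 in HDACi-CFC against HDACi-Context. In Veh-CFC against Veh-Context, where 8 were called, loess offsets gave 13, DESeq2 gave 5 and a fit of only the 6 libraries compared gave 5. DESeq2 called 1 member in the interaction. With peaks spanning the start site alone, fewer peaks by construction, the counts were 16 in HDACi-Context against Veh-Context, 20 in HDACi-CFC against HDACi-Context and 3 in Veh-CFC against Veh-Context. Leaving out 1 library at a time gave 1 to 6 calls in HDACi-CFC against Veh-CFC, 7 to 28 in HDACi-Context against Veh-Context, 24 to 37 in HDACi-CFC against HDACi-Context, 1 to 15 in Veh-CFC against Veh-Context and 0 to 5 in the interaction. The cause was not tested in any of these. RLE size factors, no filter, library totals and 1 peak per gene kept the total of both directions within 1.5 times of each count. With library totals, though, the split in HDACi-CFC against HDACi-Context was 24 higher and 11 lower, against 31 and 3. Same-numbered libraries of different groups did not deviate together (correlations from −0.286 to 0.365, over 0.1 in 3 of 18 pairs, 6 of 12 libraries correlating best with their own number). A replicate block gave 5, 25, 33, 11 and 0 calls in the 5 comparisons and changed no call of a named peak. Depth limits the narrow peaks, such as Zfp708 downstream, Zfp764 and Zfp846.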
